A study of Mus musculus with 10 samples.

Results

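The effect of 1 inactivated Ddx41 allele on gene expression was examined in erythroid progenitors of mice in which both copies of Trp53 were intact. The members were chosen by the genotype in the sample labels: 2 Ddx41+/- Trp53+/+ mice (numbers 32 and 34) and 3 Ddx41+/+ Trp53+/+ mice (numbers 10, 11 and 12), which make up 5 of the 10 libraries of the study. The cells were R2 cells, the CD71+Ter119+ fraction of bone marrow (BM). Each library came from about 100000 sorted cells of 1 transplanted mouse, so these recipient mice are taken as the replicates. Every donor carried RosaCreERT2, a Cre recombinase that is driven by the widely active Rosa26 promoter and enters the nucleus only in the presence of tamoxifen, and the Ddx41+/- donors also carried 1 floxed Ddx41 allele. BoyJ recipients were lethally irradiated and received 1000000 BM mononuclear cells, and mice of both genotypes were then injected with 1 mg of tamoxifen in 50 ul of corn oil on 5 days, in 2 rounds. BM was taken from the leg bones at 8 weeks after the transplant. Cre can recombine the floxed allele in any donor-derived cell and not only in erythroid cells, and the gate does not separate donor cells from erythroid cells of the recipient that survived irradiation. The labels give no age, sex or batch. How many donors supplied the recipients of each genotype is not given in the sources used here. If recipients of 1 genotype shared a donor, differences between donors and the effect of Ddx41 genotype cannot be told apart. The other 5 libraries, from Trp53+/- mice that were Ddx41+/+ (3 mice) or Ddx41+/- (2 mice) and otherwise treated alike, entered the same statistical fit and are used below only for comparison.

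DDX41 is a DEAD-box RNA helicase that is found with the spliceosome, resolves RNA-DNA hybrids (R-loops) and takes part in the sensing of DNA in the cytosol, and germline mutations of its gene predispose people to myeloid neoplasms. R2 cells are proerythroblasts and basophilic to polychromatic erythroblasts, which divide rapidly while they load hemoglobin, build the red cell membrane skeleton and start to close down the rest of their genome. The tumor suppressor p53, the product of Trp53, halts the cell cycle of such cells when ribosome production or DNA replication goes wrong, which is why the Trp53 genotype was varied in the study.

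The Ddx41+/+ libraries held 14590345 to 20283930 counts, and those of the Ddx41+/- mice 16031406 (mouse 32) and 7866648 (mouse 34). The labelled cell type held against its markers: Slc4a1, the anion exchanger band 3, was at 26283 to 29694 CPM (counts per 1000000 counts of the scaled library) in the 5 mice, Alas2, the first enzyme of erythroid heme synthesis, at 7007 to 8354 CPM, and Tfrc, the CD71 gene, at 2700 to 3332 CPM. The alpha- and beta-globin genes, which have near-identical copies, were at no more than 1.28 CPM in any of them and thus say nothing about the cells. Ddx3y and Xist, named as checks of sex, were at 52.1 to 57.1 CPM and at no more than 1.16 CPM. Nnt, a check of mouse substrain, was at 5.01, 5.35 and 6.78 CPM in the Ddx41+/+ mice. It was at 3.77 and 4.06 CPM in the Ddx41+/- mice and at 7.79 to 13.9 CPM in the Trp53+/- mice. The part of substrain in the differences was not tested. Between mice of 1 genotype, 209 and 230 of the tested genes differed by over 4-fold between mouse 10 and mice 11 and 12, 92 between mice 11 and 12, and 133 between mice 32 and 34. The genes with the highest ratios between mice 32 and 34 were low: Xlr3b was at 2.13 and 0 CPM, Pde1c at 2.01 and 0, Dpep2 at 1.64 and 0 and Ptges at 1.58 and 0. Rn45s, the precursor of ribosomal RNA, which poly(A) selection should deplete, was at 9689, 8325 and 11872 CPM in the Ddx41+/+ mice and at 8562 and 22378 CPM in mice 32 and 34 and was named after its values were seen.

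Ddx41 itself was at 25.1, 21.9 and 22.6 CPM in the Ddx41+/+ mice and at 13.8 and 16.5 CPM in the Ddx41+/- mice. Both Ddx41+/- mice lay below all 3 Ddx41+/+ mice, the direction their labels call for. The log2 fold change was -0.63 (SE 0.156, adjusted p = 0.0887, edgeR's quasi-likelihood test with Benjamini-Hochberg adjustment, used throughout), short of the threshold. Trp53 mRNA was at 57.4, 57.4 and 58.9 CPM in the Ddx41+/+ mice and at 59.2 and 68.1 CPM in the Ddx41+/- mice, with a log2 fold change of 0.13 (adjusted p = 0.743).

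Across the transcriptome, the Ddx41+/- cells differed from the Ddx41+/+ cells in a small set of genes, and none of the genes above 1000 CPM was part of it. Of 24421 genes, 11846 passed the filter on low counts and were tested, and 64 (0.54%) passed a fold change over 1.5 with an adjusted p under 0.05 and are called differentially expressed genes (DEGs). 45 DEGs were higher (0.38% of the tested genes) and 19 lower (0.16%) in the Ddx41+/- mice. 33 of the higher and 10 of the lower DEGs changed by over 2-fold, and 10 and 2 of them by over 4-fold. For every one of the 64, the lowest mouse of the higher genotype lay above the highest mouse of the other, and so it did for 24.9% of all tested genes. The higher DEGs had a median of 7.48 CPM in Ddx41+/+ and 20.2 CPM in Ddx41+/- cells, whereas the lower DEGs went from a median of 41.7 to one of 23.1 CPM. The median log2 fold change of all tested genes was 0.00, and 50.3% of them were on the positive side. At an unadjusted p under 0.05, with no limit on the fold change, 5.52% of the tested genes were higher and 4.12% lower. In bulk RNA, fewer cells of a type and less RNA per cell cannot be told apart, here and in all results below.

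The size of the differences depended on the level of the genes. The 128 genes with a mean over 1000 CPM made up 31.3% of the counts of the 5 libraries and included no DEG, and 95% of them had a log2 fold change of at most 0.19 in size. Among the 1783 genes of 100 to 1000 CPM there were 4 DEGs (0.224%), 2 in each direction. The 3422 genes of 20 to 100 CPM gave 11 higher and 11 lower DEGs (0.643%), and the 2937 genes of 5 to 20 CPM gave 22 higher and 5 lower ones (0.919%). Below 5 CPM, 10 of 3576 genes were higher and 1 was lower (0.308%), and 95% of log2 fold changes there lay within 1.64 of 0. The plot of effect against level shows this funnel and the few genes outside it.

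**Figure D1:**
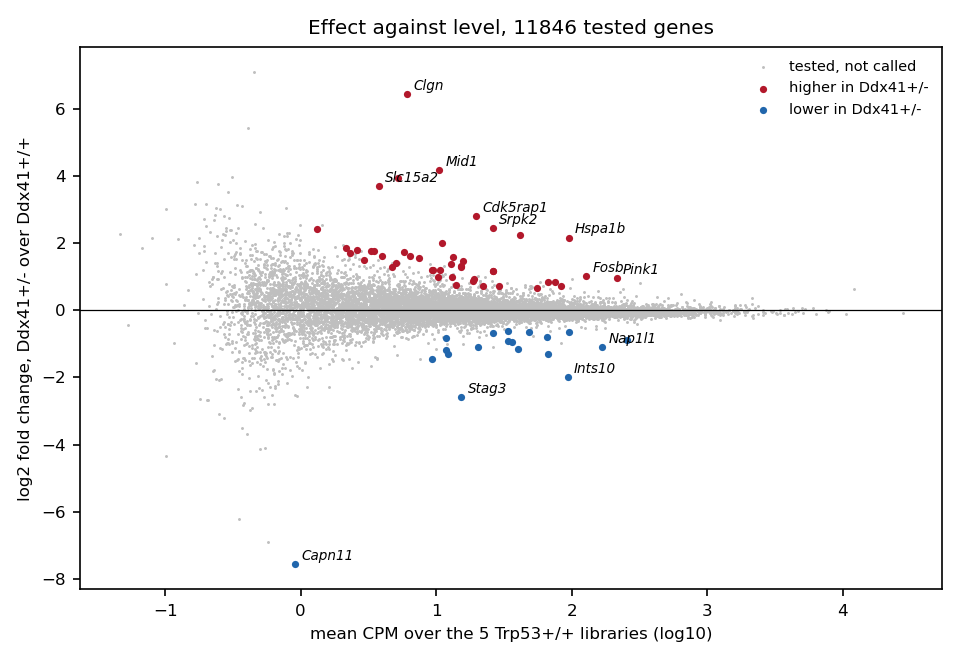
Log2 fold change in Ddx41+/- over Ddx41+/+ R2 cells with Trp53+/+ (vertical) against the mean CPM over the 5 libraries on a log10 scale (horizontal), with 1 point per tested gene. The 45 higher DEGs are red and the 19 lower ones blue, and none of the DEGs lies above 1000 CPM.

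The genes with the largest differences came from different parts of cell biology, as the roles given with them show. Clgn (chromosome 8, 83389867 to 83428552, positions here and below follow GENCODE M21 on GRCm38), which encodes the chaperone calmegin of the endoplasmic reticulum that is known mainly from testis, was at 0.211, 0.194 and 0.0692 CPM in the Ddx41+/+ mice and at 14.7 and 15.4 CPM in the Ddx41+/- mice. It was near absent in the first genotype and clearly present in both mice of the second (log2 fold change 6.44, SE 0.481, adjusted p = 2.36e-06). Mid1 (chromosome X, 169685199 to 170005736), a ubiquitin ligase of microtubules, was at 1.37, 1.17 and 1.45 CPM against 18.8 and 29.8 CPM (log2 fold change 4.18, SE 0.346, adjusted p = 4.64e-06). Erdr1, the gene next to it (chromosome X, 170010526 to 170018797, placed through RefSeq), was at 0.422, 0.292 and 1.73 CPM against 9.55 and 14.4 CPM. In both neighbors every Ddx41+/- mouse lay several-fold above every Ddx41+/+ mouse, and without mouse 34 Erdr1 was not a DEG (adjusted p = 0.0692). Of the 75-base stretches of the longest Mid1 transcript, 22.7% also occur in another gene, mostly in the pseudogene Mid1-ps1, so the counts of Mid1 carry that uncertainty.

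Cdk5rap1 (chromosome 2, 154335380 to 154373010), which modifies mitochondrial transfer RNAs, was at 7.59, 3.84 and 5.95 CPM in the Ddx41+/+ mice and at 39.6 and 41.5 CPM in the Ddx41+/- mice. Srpk2 (chromosome 5, 23503264 to 23684617), a kinase of the SR proteins that guide splicing, was at 7.80, 9.04 and 11.7 CPM against 48.0 and 55.1 CPM. Both rose in close to equal measure in mice 32 and 34, by a log2 of 2.81 (SE 0.237) and 2.44 (SE 0.208), each with an adjusted p of 4.64e-06. Tbc1d9, a Rab GTPase-activating protein, rose by a log2 of 2.02 (7.01, 2.96 and 5.05 against 20.7 and 19.8 CPM, adjusted p = 0.0017). Ctsw, the cathepsin of cytotoxic lymphocytes, was low in all mice (0.346 to 0.535 against 2.19 and 3.05 CPM, log2 fold change 2.42, adjusted p = 0.0306) and was not a DEG without mouse 11, 12, 32 or 34 (adjusted p from 0.062 to 0.305). Slc15a2, a transporter of short peptides, was at 0.686, 0.583 and 0.968 CPM in the Ddx41+/+ mice, at 15.1 CPM in mouse 32 and at 1.65 CPM in mouse 34. Its log2 fold change of 3.69 thus rested on mouse 32, and without that mouse it was 1.17 (adjusted p = 0.75). In the Trp53+/- mice of either Ddx41 genotype, Slc15a2 was at 56.6 to 88.1 CPM.

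Among the lower genes, Ints10 (chromosome 8, 68793929 to 68831667), a subunit of the Integrator complex that processes small nuclear RNAs, had the smallest p of all genes. It was at 126, 152 and 121 CPM in the Ddx41+/+ mice and at 32.2 and 35.9 CPM in the Ddx41+/- mice, which lay far below them (log2 fold change -1.98, SE 0.11, adjusted p = 5.62e-08). Nap1l1 (chromosome 10), a histone chaperone, was at 210, 222 and 205 CPM against 97.9 and 102 CPM, and Acp1 (chromosome 12), a low-molecular-weight phosphatase that is also a red cell enzyme, at 306, 324 and 310 CPM against 175 and 166 CPM. Gcdh (chromosome 8), the mitochondrial glutaryl-CoA dehydrogenase, was at 81.5, 94.5 and 85.6 CPM against 34.9 and 35.7 CPM. These genes fell with little scatter between mice, by a log2 of 1.09 for Nap1l1 (adjusted p = 4.64e-06), 0.87 for Acp1 (adjusted p = 2.58e-05) and 1.31 for Gcdh (adjusted p = 4.64e-06). Of the 75-base stretches of the longest transcripts, 23.7% of those of Nap1l1 and 11% of those of Acp1 occur in other genes. Capn11, a calpain known from testis, had 14, 36 and 30 counts in the Ddx41+/+ libraries and 0 in both Ddx41+/- libraries, which makes it at least 5.4-fold lower when set against a floor of 3 counts per library. Reads were amplified by PCR and carry no molecular identifiers, so such a floor covers counting error only. Stag3, the meiotic form of a cohesin subunit, varied widely in the Ddx41+/+ mice (38.5, 9.62 and 21.7 CPM) and was at 5.05 and 2.03 CPM in the Ddx41+/- mice (adjusted p = 0.0405). Other lower DEGs were Slfn9, of the Schlafen family (log2 fold change -1.09), Slc25a46, a protein of the mitochondrial outer membrane (-0.92), and Cdc42ep3, an effector of CDC42 (-0.64). Without mouse 34 none of Capn11, Stag3, Slfn9, Slc25a46 and Cdc42ep3 was a DEG (adjusted p from 0.118 to 0.463), and without mouse 32 Slc25a46 alone of them remained one. Without mouse 10 Stag3 (adjusted p = 0.0947) and Cdc42ep3 (adjusted p = 0.0189, under the fold limit) were lost as well, and without mouse 11 Capn11 (adjusted p = 0.0661).

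Clgn, Mid1, Cdk5rap1, Srpk2, Tbc1d9, Ints10, Gcdh, Nap1l1 and Acp1 were the 9 DEGs that remained DEGs whichever of the 5 mice was left out. 13 more were lost without 1 of the mice, and 5 DEGs were lost in each of the 5 cases. Without mouse 32 there were 26 DEGs, 22 of them among the 64, and without mouse 34 there were 13, all among the 64. Without mouse 12 there were 103. In the fits without mouse 32 or 34, the remaining Ddx41+/- mouse was assumed to vary like the mice of the other genotypes. The heat map of the 64 DEGs gives their relative level in each mouse.

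**Figure D2:**
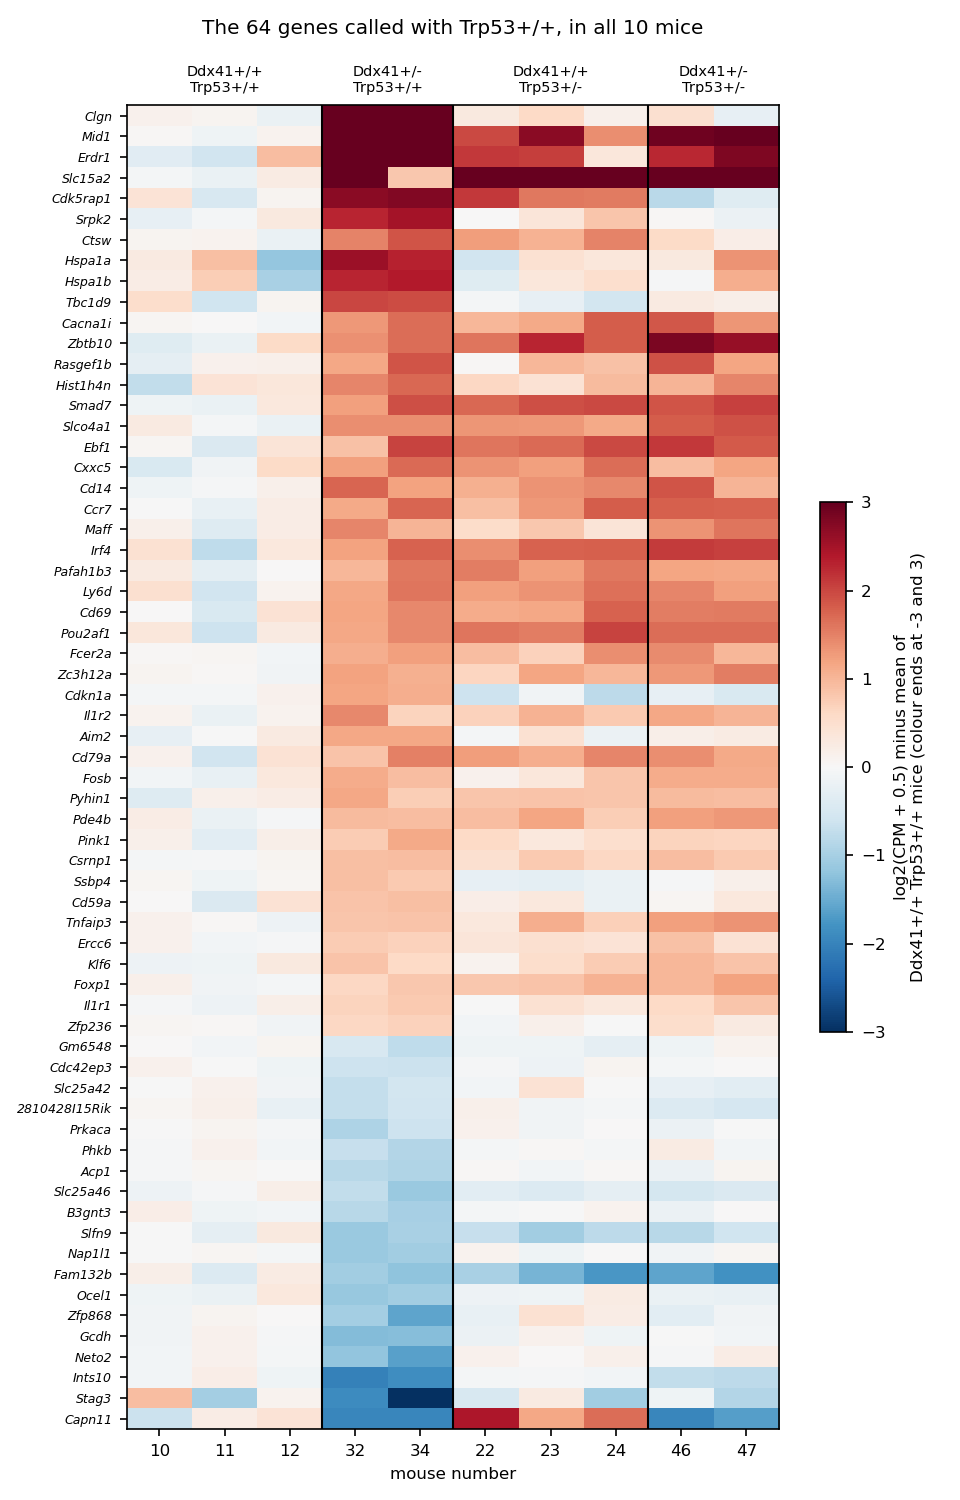
The 64 DEGs (rows, from the highest to the lowest log2 fold change) in each of the 10 mice (columns, by genotype and mouse number), colored by log2(CPM + 0.5) minus the mean of the 3 Ddx41+/+ Trp53+/+ mice, with the color scale ending at -3 and 3. Slc15a2 is high in mouse 32 and in all Trp53+/- mice but not in mouse 34.

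Stress genes were examined by lists. Heat-shock proteins are chaperones that refold damaged proteins and are induced by the factor HSF1. Of 39 tested heat-shock and chaperone genes, 2 were DEGs and both were higher: Hspa1a and Hspa1b, the neighboring genes of the inducible HSP70. Hspa1a was at 17.1, 27.0 and 6.09 CPM in the Ddx41+/+ mice and at 87.1 and 72.1 CPM in the Ddx41+/- mice (log2 fold change 2.23, SE 0.393, adjusted p = 0.0126). Hspa1b was at 41.5, 58.9 and 17.7 CPM against 173 and 184 CPM (log2 fold change 2.17, SE 0.346, adjusted p = 0.00543). In both, the Ddx41+/+ mice spread over more than 3-fold and still lay below the Ddx41+/- mice. The 2 genes share 54.2% and 55.8% of the 75-base stretches of their transcripts, mostly with each other. A read from such a stretch cannot by itself be assigned to 1 gene. The median log2 fold change of the list was 0.09. At an unadjusted p under 0.05, 10 members were higher and 1 lower, against 5.52% and 4.12% of all tested genes. The other chaperones moved far less, for example Hspa8, the constitutive HSC70 (668, 714 and 571 against 720 and 828 CPM, adjusted p = 0.35), and Dnajb1, a partner of HSP70 (252, 270 and 248 against 297 and 330 CPM, adjusted p = 0.095), which were named after their values were seen. Without mouse 32 or without mouse 34, neither Hspa1a (adjusted p = 0.131 and 0.101) nor Hspa1b (adjusted p = 0.0576 and 0.0951) was a DEG.

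The regions before the starts of Hspa1a and Hspa1b are shown because these genes moved together and carry an element that HSF1 is known to bind. Both are the 250 bases before the transcription start from RefSeq on GRCm38.p6, minus strand, chr17:34972157-34972406 for Hspa1a and chr17:34959239-34959488 for Hspa1b, with the match to the heat-shock element GAANNTTC, searched on both strands, in capitals.
Hspa1a: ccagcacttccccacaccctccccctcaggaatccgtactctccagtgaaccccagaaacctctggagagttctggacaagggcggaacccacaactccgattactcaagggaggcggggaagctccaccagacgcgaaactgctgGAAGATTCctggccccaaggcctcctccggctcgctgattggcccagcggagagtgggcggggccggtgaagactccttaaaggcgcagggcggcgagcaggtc
Hspa1b: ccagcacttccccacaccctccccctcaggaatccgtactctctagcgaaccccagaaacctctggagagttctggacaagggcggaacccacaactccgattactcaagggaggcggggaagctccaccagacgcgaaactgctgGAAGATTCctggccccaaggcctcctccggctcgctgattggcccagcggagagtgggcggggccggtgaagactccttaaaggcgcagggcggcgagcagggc
The 2 windows are identical at 247 of 250 positions, and the element lies 104 to 97 bases before the start in both. It was found in 6.78% of 27025 such windows, in 5.11% of the 9047 windows of tested genes, in 2 of the 31 higher DEGs with a window (these 2) and in 2 of the 14 lower ones. Other elements were searched too. AP-1 was in 2 higher and 0 lower DEGs (4.33% of windows of tested genes), and NF-kB in 1 and 0 (1.48%). The TATA box was in 3 and 0 (6.13%), and the heat-shock element in its other phase in 1 and 1 (5.77%). The cyclic AMP response element (2.8%) and the serum response CArG box (0.0332%) were in no DEG window.

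Immediate-early genes are switched on within minutes by growth factor, cytokine or stress signals, and many encode the AP-1 factors of the FOS, JUN, ATF and MAF families or their feedback inhibitors. Of 50 tested members, 4 were DEGs, all higher: Fosb, Maff, Klf6 and Csrnp1. Fosb, an AP-1 subunit, was at 85.7, 76.9 and 112 CPM in the Ddx41+/+ mice and at 196 and 172 CPM in the Ddx41+/- mice (log2 fold change 1.01, SE 0.165, adjusted p = 0.00673). Csrnp1, a nuclear factor induced by AXIN1, was at 13.5, 13.6 and 14.9 CPM against 26.5 and 27.2 CPM (log2 fold change 0.94, SE 0.138, adjusted p = 0.00338). Klf6, a zinc finger factor, was at 58.9, 60.4 and 80.1 CPM against 120 and 99.2 CPM, and the small MAF protein gene Maff at 1.95, 1.17 and 2.08 CPM against 5.60 and 3.94 CPM, both with an adjusted p of 0.0493. None of the 4 overlapped between genotypes, which held for all 64 DEGs and for 24.9% of all tested genes. Without mouse 32 (adjusted p from 0.0511 to 0.513) or mouse 34 (0.0676 to 0.167) none of them was a DEG, and Klf6 and Maff were also lost without mouse 10 or 11. Junb, another AP-1 subunit that was named after its values were seen, passed the p but not the fold limit (134, 129 and 127 against 181 and 210 CPM, log2 fold change 0.58, adjusted p = 0.0153).

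The list as a whole lay on the higher side. 48 of the 50 members had a positive log2 fold change, against 50.3% of all tested genes, and 39 were higher at an unadjusted p under 0.05, against 5.52%, with none lower. Its median log2 fold change was 0.61, against 0.00 for all tested genes, and it stayed between 0.46 and 0.62 when any 1 mouse was left out. The number of DEGs in the list was less stable, since it was 0 without mouse 32, 0 without mouse 34, 2 without mouse 11 and 10 without mouse 12. The summed CPM of the list was 5976, 5525 and 6093 in the Ddx41+/+ mice and 7178 and 7634 in the Ddx41+/- mice, which both lay above. In the Trp53+/- mice the sum was 6215, 6961 and 7368 with Ddx41+/+ and 7434 and 7266 with Ddx41+/-.

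NF-kB targets and inflammatory genes followed with smaller values. Of 55 tested members, 3 were higher DEGs and none was a lower one, the median log2 fold change was 0.35, and 16 were higher and 1 lower at an unadjusted p under 0.05, against 5.52% and 4.12% of all tested genes. Lymphocyte markers moved in the same comparison, with a median of 1.01 for B cell and 0.61 for T and NK cell genes (given below), and their part in the values of this list was not tested. Tnfaip3, the ubiquitin-editing enzyme A20 that ends NF-kB signaling, was at 55.2, 51.6 and 45.4 CPM in the Ddx41+/+ mice and at 90.3 and 92.2 CPM in the Ddx41+/- mice (log2 fold change 0.84, SE 0.154, adjusted p = 0.0149). Cd14, a receptor for lipopolysaccharide, was at 6.80, 7.34 and 8.44 CPM against 26.3 and 17.9 CPM (log2 fold change 1.58, adjusted p = 0.00339), and Cd69, an early activation antigen of lymphocytes, at 9.39, 6.71 and 12.8 CPM against 21.7 and 26.0 CPM (log2 fold change 1.31, adjusted p = 0.0141). Zc3h12a, the RNase regnase-1 that cuts inflammatory mRNAs, was not on the list and also rose (6.54, 6.32 and 5.74 against 15 and 13.6 CPM, log2 fold change 1.20, adjusted p = 0.00446), as did Il1r1 and Il1r2, the signaling and the decoy receptor of interleukin-1, by a log2 of 0.73 and 1.19, which were named after their values were seen. Without mouse 32 none of these 6 genes was a DEG (adjusted p from 0.0778 to 0.52), and without mouse 34 Cd14 and Il1r2 were. Il1r1 was also lost without mouse 10 or 11 (adjusted p = 0.0819 and 0.0972), and Il1r2 without mouse 11 (adjusted p = 0.0695). Mean levels in the Ddx41+/+ Trp53+/- mice were 84.9 CPM for Tnfaip3, 19.2 CPM for Cd14 and 25.1 CPM for Cd69. The Ddx41+/- Trp53+/+ means of these were 91.3, 22.1 and 23.8 CPM. For Zc3h12a, Il1r2 and Il1r1, the Ddx41+/+ Trp53+/- means were 12.5, 11.6 and 27.8 CPM. The Ddx41+/- Trp53+/+ means were 14.3, 13.9 and 38.1 CPM.

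Of 43 tested p53 targets, 1 was a DEG. Cdkn1a, which encodes the cell cycle inhibitor p21, was at 6.75, 6.71 and 7.68 CPM in the Ddx41+/+ mice and at 16.6 and 15.6 CPM in the Ddx41+/- mice, with a gap that exceeded the spread of either genotype (log2 fold change 1.20, SE 0.219, adjusted p = 0.0153). It was not a DEG without mouse 11, 32 or 34 (adjusted p = 0.0574, 0.167 and 0.145). The median of the list was 0.08, and 6 members were higher and 2 lower at an unadjusted p under 0.05, against 5.52% and 4.12% of all tested genes. None of 57 interferon-stimulated genes was a DEG. Their median was 0.20, and 40 had a positive log2 fold change, against 50.3% of all tested genes. At that p, 5 were higher and 1 lower, against 5.52% and 4.12% of all tested genes. Among 29 genes for the sensing of nucleic acids in the cytosol, a process in which DDX41 itself takes part, Aim2 was a DEG. Aim2, the DNA sensor of an inflammasome, was at 14.6, 17.3 and 20.9 CPM against 39.3 and 39.8 CPM (log2 fold change 1.17, SE 0.18, adjusted p = 0.00438), and was lost as a DEG without mouse 32 or 34 (adjusted p = 0.0709 and 0.0746). The median of that list was 0.02. The integrated stress response and the unfolded protein response, with 40 tested genes and a median of 0.03, had no DEG. Its member Atf3 was at 41.3, 44.2 and 31.6 CPM against 74.0 and 55.2 CPM (adjusted p = 0.0829). Antioxidant genes had a median of -0.04 over 33 members and the BCL2 family one of 0.05 over 20, with no DEG in either list.

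Pink1, the kinase that marks damaged mitochondria for removal by mitophagy, was the most abundant of the higher DEGs. It was at 171, 125 and 174 CPM in the Ddx41+/+ mice and at 264 and 343 CPM in the Ddx41+/- mice (log2 fold change 0.95, SE 0.13, adjusted p = 0.00197), and it was lost as a DEG only without mouse 34 (adjusted p = 0.0746). The other 36 tested mitophagy and autophagy genes gave no DEG, and the median of the whole list was -0.01. Smad7, the inhibitor of TGF-beta signaling, was at 2.64, 2.48 and 3.74 CPM against 7.54 and 12.4 CPM (log2 fold change 1.74, SE 0.248, adjusted p = 0.0026) and was likewise lost without mouse 34 (adjusted p = 0.0746). The Trp53+/- mice of both Ddx41 genotypes held 10.7 to 13.7 CPM of Smad7, as much as the higher of the Ddx41+/- mice.

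The erythroid program differed little. None of the 13 tested identity genes, 29 erythroid transcription factors, 21 heme synthesis and transport genes or 25 genes of late maturation was a DEG, and the medians of these lists were -0.04, 0.04, -0.04 and 0.01. The identity genes summed to 54043, 52061 and 56655 CPM in the Ddx41+/+ mice and to 51916 and 52328 CPM in the Ddx41+/- mice, and the ranges overlapped. Abcg2, a transporter of heme and porphyrins, had the largest difference among the heme genes (515, 539 and 537 against 474 and 430 CPM, adjusted p = 0.264). Cbfa2t3, a corepressor in the GATA1 complex, had the largest among the transcription factors (36.0, 37.3 and 51.7 against 60.5 and 54.2 CPM, adjusted p = 0.23). Of 23 genes of iron uptake and storage, 1 was a DEG, Fam132b. It encodes erythroferrone, the hormone by which erythroblasts suppress hepcidin in the liver, and it was at 57.2, 38.0 and 60.3 CPM in the Ddx41+/+ mice and at 24.5 and 21.8 CPM in the Ddx41+/- mice (log2 fold change -1.15, SE 0.216, adjusted p = 0.0169). The Trp53+/- mice held 14.1 to 25.8 CPM of it. Fam132b was not a DEG without mouse 10, 32 or 34 (adjusted p = 0.0577, 0.135 and 0.291). The list of the membrane and its skeleton, with 27 tested genes, held 2 DEGs. Acp1, a red cell enzyme on this list rather than a part of the skeleton, was lower, as given above. Cd59a, a complement inhibitor on the red cell surface, was higher (55.4, 40.6 and 74.4 against 100 and 104 CPM, adjusted p = 0.0493). Cd59a was not a DEG without mouse 10 or 11 (adjusted p = 0.118 and 0.0965), nor without mouse 32 or 34 (log2 fold change 0.88 and 0.83). Genes of early progenitors had a median of 0.28 over 24 members with no DEG, a value that was -0.01 without mouse 32. Erythropoietin and KIT signaling had a median of 0.06 over 40 genes and no DEG.

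Growth and division genes leaned to the lower side by small amounts. The median log2 fold change of all tested genes also varied with level. It was 0.11 below 5 CPM, -0.04 from 100 to 1000 CPM and -0.03 above 1000 CPM. Of 58 S phase genes 48, and of 64 genes of mitosis and cytokinesis 57, had a negative log2 fold change, against 49.7% of all tested genes, with medians of -0.11 and -0.10. No member was a DEG, and 5 and 14 of them were lower at an unadjusted p under 0.05, against 4.12% of all tested genes, with none higher. Ncaph, a condensin subunit, was at 289, 287 and 264 CPM against 223 and 221 CPM (log2 fold change -0.34, adjusted p = 0.072), and Clspn, the checkpoint adaptor claspin, at 295, 311 and 334 CPM against 260 and 253 CPM (log2 fold change -0.29, adjusted p = 0.11). In each, both Ddx41+/- mice lay below all Ddx41+/+ mice, which held for 12.1% of all tested genes. Cytosolic ribosomal protein genes also lay on the negative side in 74 of 82, with a median of -0.10 and no DEG, and their sums of 33980 to 38929 CPM in the Ddx41+/+ mice overlapped those of 33092 and 35788 CPM in the Ddx41+/- mice. Of 56 histone genes, which are poorly captured by poly(A) selection, the replication-dependent Hist1h4n was a higher DEG (0.791, 2.33 and 2.21 against 5.47 and 6.60 CPM, adjusted p = 0.0493), although 83.4% of its 75-base stretches occur in other genes, and it was lost without mouse 10, 11, 32 or 34 (adjusted p from 0.052 to 0.371). The median of the histone list was 0.20, and 0.02 without mouse 34.

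Lists tied to the known activities of DDX41 held 1 DEG between them, Aim2. No DEG was found among 99 spliceosome genes (median -0.03), 36 DEAD-box helicases (median -0.01) or 30 R-loop genes (median -0.08). In the R-loop list, 7 members were lower at an unadjusted p under 0.05 (4.12% of all tested genes were), 1 of them being Ddx41 itself, whose genotype defines the groups, and Rnaseh2a, the catalytic subunit of RNase H2, passed the p but not the fold limit. Rnaseh2a was at 99.9, 90.2 and 84.9 CPM in the Ddx41+/+ mice and at 62.7 and 64 CPM in the Ddx41+/- mice (log2 fold change -0.53, SE 0.0933, adjusted p = 0.0117). It was among 10 genes that passed the adjusted p with a fold change of at most 1.5, 3 of them higher and 7 lower. Of these, named after their values were seen, G3bp1, the scaffold of stress granules, was at 139, 151 and 142 CPM against 95.5 and 105 CPM (adjusted p = 0.0141), and Pot1a, a telomere protein, at 60.1, 62.1 and 64.1 CPM against 48.1 and 40.0 CPM (adjusted p = 0.0351). DNA damage signaling and repair had a median of -0.08 over 68 genes. In this list, 2 were higher and 8 lower at an unadjusted p under 0.05, against 5.52% and 4.12% of all tested genes. Its 1 DEG, Ercc6, the helicase CSB of transcription-coupled repair, was higher (12.1, 10.4 and 10.7 against 19.0 and 18.3 CPM, adjusted p = 0.0498) and was lost whichever mouse was left out (adjusted p from 0.0589 to 0.384). No DEG was found in nucleolar ribosome biogenesis (84 genes, median -0.03), snoRNA host genes (26, -0.03), mitochondrial ribosomal proteins (77, -0.04), translation initiation factors (52, -0.06), oxidative phosphorylation (87, -0.04) or the proteasome (48, -0.03).

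**Figure D3:**
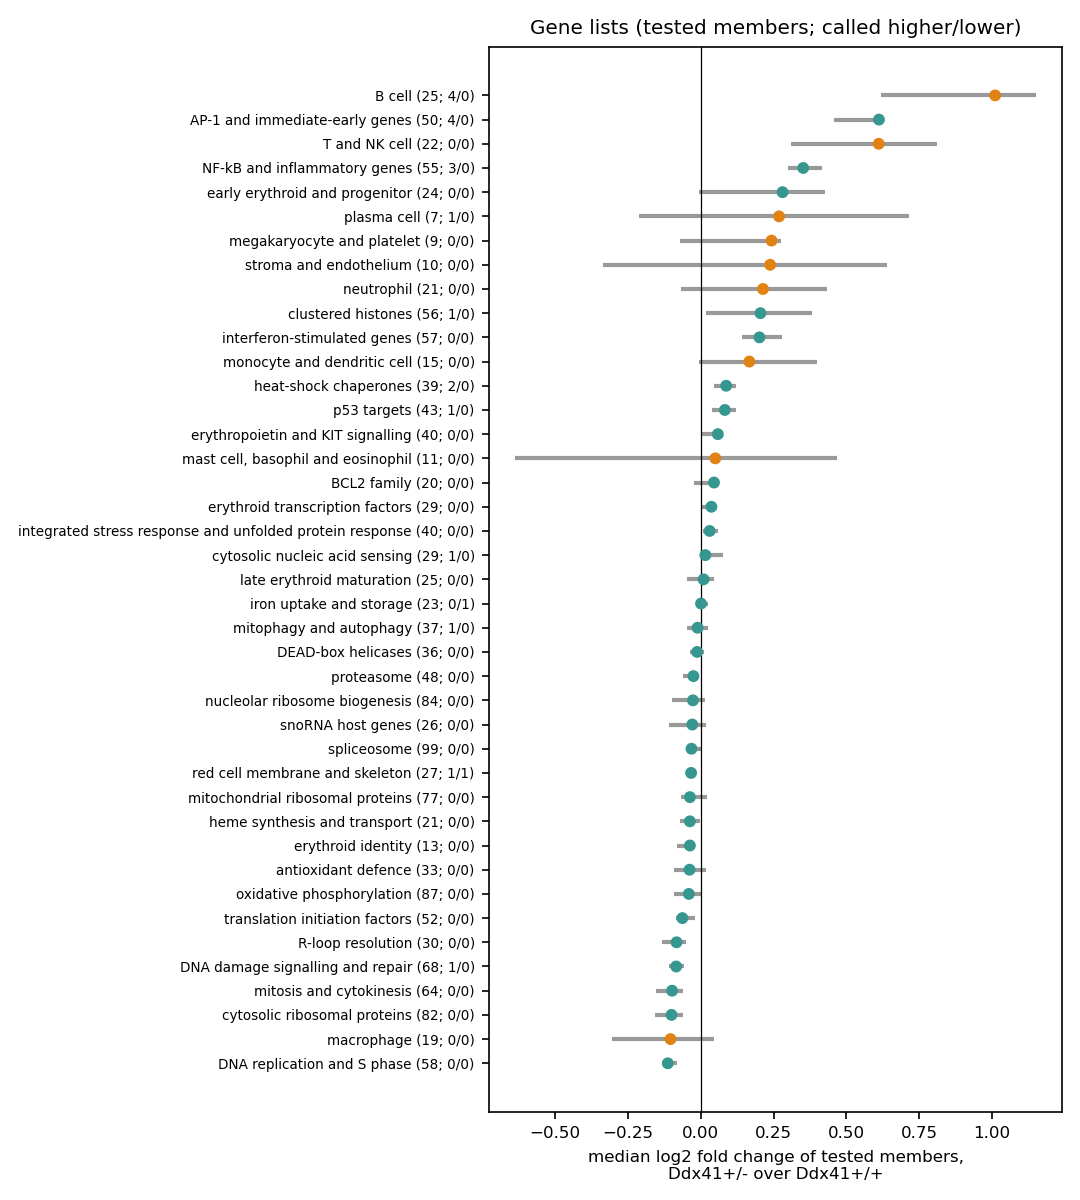
Median log2 fold change in Ddx41+/- over Ddx41+/+ R2 cells with Trp53+/+ (horizontal) for each gene list (vertical), with the tested members and the DEGs higher and lower in parentheses. Points are green for programs of the cell and orange for markers of other cells, gray lines span the medians with each mouse left out in turn, and the B cell list (1.01) has the highest median, followed by the AP-1 and the T and NK cell lists (0.61 each).

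B cell genes had the highest median of all lists. All 25 tested members had a positive log2 fold change, against 50.3% of all tested genes, with a median of 1.01. At an unadjusted p under 0.05, 20 were higher, against 5.52% of all tested genes, and none was lower. 4 were DEGs: Ebf1, Ly6d, Pou2af1 and Cd79a. Ebf1, the factor that commits progenitors to the B lineage, was at 3.48, 2.33 and 4.57 CPM in the Ddx41+/+ mice and at 6.57 and 15.2 CPM in the Ddx41+/- mice (log2 fold change 1.62, adjusted p = 0.025). Cd79a, a chain of the B cell receptor, was at 18.5, 11 and 22.9 CPM against 30.6 and 48.4 CPM (log2 fold change 1.17, adjusted p = 0.0312), with mouse 34 highest in both genes. Ly6d, a surface marker of B cell progenitors, was at 10.5, 4.81 and 7.96 CPM against 17.1 and 23.6 CPM (adjusted p = 0.0142), and Pou2af1, a B cell coactivator, at 11.9, 5.78 and 11.3 CPM against 21 and 26.0 CPM (adjusted p = 0.0153). None of the 4 genes overlapped between genotypes, which held for all 64 DEGs and for 24.9% of all tested genes. Without mouse 34 no B cell gene was a DEG (adjusted p from 0.276 to 0.534 for these 4) and the median was 0.62, without mouse 32 there were 3, without mouse 11 there were 2 and without mouse 12 there were 7.

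The summed level of the B cell markers did overlap. It was 709, 422 and 445 CPM in the Ddx41+/+ mice and 694 and 972 CPM in the Ddx41+/- mice, of which Cd74, the invariant chain of antigen presentation, made up 142 to 324 CPM. In the Trp53+/- mice the sum was 735 to 891 CPM with Ddx41+/+ and 801 and 927 CPM with Ddx41+/-. The median log2 fold change of the list between the Ddx41 genotypes with Trp53+/- was 0.00. Side by side, Ebf1 was at 11.2 to 16.2 CPM, Cd79a at 35.8 to 47.1 CPM and Pou2af1 at 27.4 to 39.1 CPM in the 5 Trp53+/- mice. Irf4, the DEG of the plasma cell list that B cells also use, was at 12.1, 4.86 and 10.8 CPM in the Ddx41+/+ mice, 20.7 and 30.7 CPM in the Ddx41+/- mice and 23.4 to 38.9 CPM in the Trp53+/- mice. Other B and T lymphocyte genes among the higher DEGs, named after their values were seen, were Ccr7, a lymph node homing receptor (4.11, 3.45 and 4.91 against 9.61 and 15 CPM), Fcer2a, the low-affinity IgE receptor (3.06, 3.11 and 2.77 against 6.93 and 7.62 CPM), and Foxp1 (19.7, 16.2 and 16.9 against 27.4 and 31.2 CPM). Without mouse 34 Irf4, Ccr7, Fcer2a and Foxp1 were not DEGs (adjusted p from 0.273 to 0.306), Foxp1 was also lost without mouse 11 or 32, and Fcer2a was lost whichever mouse was left out. Whether B cells among the sorted cells account for these DEGs was not tested. No B cell marker in the table was at 0 in all 5 mice.

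The marker lists of cells other than B and plasma cells held no DEG, although Ctsw and Cd14, which lymphocytes and monocytes are known to express and which were in none of these lists, were DEGs as given above. T and NK cell markers summed to 47.6, 28.4 and 38.9 CPM in the Ddx41+/+ mice and to 49.9 and 56.8 CPM in the Ddx41+/- mice (22 genes, median 0.61, but 0.34 without mouse 11, 0.44 without mouse 32 and 0.31 without mouse 34), with Lck at 12.6 to 14.7 CPM in all. Neutrophil markers were abundant in every mouse, with sums of 7467, 7065 and 10794 CPM against 10848 and 8113 CPM (21 genes, median 0.21), and S100a9, a neutrophil calprotectin subunit, at 1496 to 2336 CPM. Macrophage markers, which include those of the macrophages at the center of erythroblastic islands, summed to 2006, 1573 and 2070 CPM against 2008 and 1811 CPM (19 genes, median -0.10). The neutrophil and macrophage sums overlapped between genotypes, while the T and NK cell sums of both Ddx41+/- mice lay above those of all Ddx41+/+ mice, as did the platelet sums (131, 138 and 172 CPM against 185 and 194 CPM). Plasma cell markers had a median of 0.27 over 7 genes, monocyte and dendritic cell markers 0.17 over 15, megakaryocyte and platelet markers 0.24 over 9, mast cell, basophil and eosinophil markers 0.05 over 11 (-0.64 without mouse 32 and 0.47 without mouse 34) and stromal and endothelial markers 0.24 over 10. Gp6 and Treml1 of platelets, Xcr1 of dendritic cells, Tpsb2 of mast cells and Pdgfra and Lum of stroma were at 0 in all 5 mice. The part of these cells in the differences was not tested.

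The DEGs were unevenly spread over the genome. On chromosome 8 lay 14 of the 64 DEGs (21.9%) and 5.39% of the tested genes, so that 2.2% of its tested genes were DEGs, against 0.54% of all. The next highest shares were 1.76% on chromosome 18 (5 DEGs) and 0.957% on chromosome 17 (6 DEGs). 13 of the 14 lay between the starts of Ints10 (68793929) and Phkb (85840959). Within 20 Mb of the start of Clgn, a window set after the positions were seen, 13 of 250 genes passed as DEGs (5.2%), with 3 on the higher and 10 on the lower side, 32.4% had an unadjusted p under 0.05 (9.64% of all tested genes), and in 48.8% the genotypes did not overlap (24.9% of all). The median size of the log2 fold change was 0.23 in this window and 0.15 over all tested genes. Ddx41 lies on chromosome 13, and none of the 112 tested genes within 10 Mb of it was a DEG.

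Along this stretch the genes ran, from Ints10 on, through Zfp868, a zinc finger gene (15, 17.3 and 16.4 CPM in the Ddx41+/+ mice against 7.73 and 5.08 CPM in the Ddx41+/- mice), and Ocel1 (13.7, 13 and 18.7 against 6.51 and 6.99 CPM) to B3gnt3, a glycosyltransferase (51.7, 41.2 and 42.1 against 24.8 and 22.4 CPM). All 4 were lower, with B3gnt3 at a log2 fold change of -0.93 (adjusted p = 0.00234). Between Zfp868 and Ocel1 lay Slc25a42, 2810428I15Rik and Ssbp4, of which the first 2 were lower and Ssbp4 higher, all named after their values were seen. Farther along, Tbc1d9 and Clgn were the neighbors that rose, and Prkaca, the catalytic subunit of protein kinase A (77.9, 82.8 and 75.3 against 41.2 and 51.1 CPM), Gcdh, Neto2, an auxiliary subunit of glutamate receptors (11.8, 13.7 and 12 against 5.23 and 3.68 CPM), and Phkb fell. Ints10, Tbc1d9, Clgn and Gcdh were DEGs whichever mouse was left out, whereas without mouse 34 Prkaca alone of the others was one and without mouse 32 only B3gnt3, Zfp868 and Neto2 were. With Trp53+/-, the log2 fold change between the Ddx41 genotypes was -0.71 for Ints10, which was a DEG there too (adjusted p = 0.00753), and between -0.58 and 0.56 for the other 12, none of them a DEG. The plot of chromosome 8 sets the 2 comparisons side by side.

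**Figure D4:**
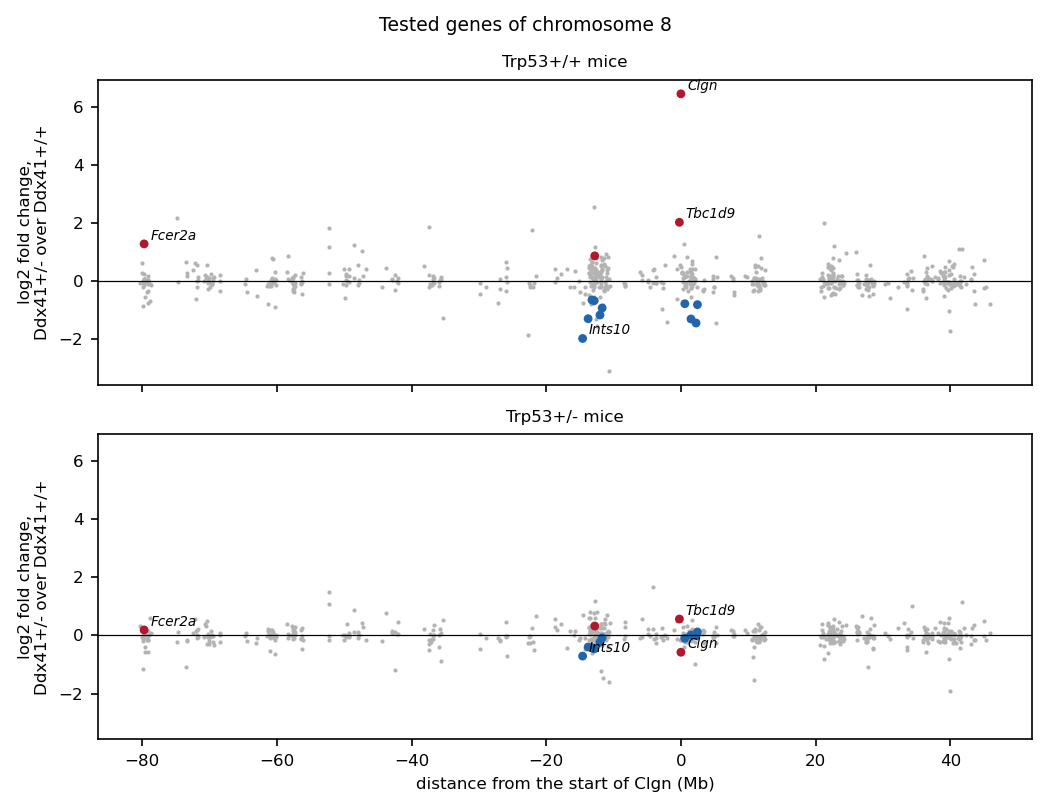
Log2 fold change in Ddx41+/- over Ddx41+/+ R2 cells (vertical) of the tested genes of chromosome 8 by distance from the start of Clgn in Mb (horizontal), with Trp53+/+ (top) and with Trp53+/- (bottom). The 14 DEGs with Trp53+/+ are colored red (higher) and blue (lower) in both panels, and 13 of them lie within 20 Mb of Clgn.

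The effect of Ddx41 genotype was set against the one with Trp53+/-, which comes from 5 other mice. There, the same thresholds gave 5 DEGs (0.0422% of the tested genes), of which 1 rose and 4 fell, and 3 of them, Ints10, Capn11 and Cdk5rap1, were among the 64. Of the 45 DEGs higher with Trp53+/+, 37 had a positive log2 fold change with Trp53+/- (48.8% of all tested genes had), with a median of 0.24 in place of 1.41. Of the 19 lower ones, 15 had a negative one (51.2% of all), with a median of -0.10 in place of -1.09. Capn11 was lower in both comparisons, at 3.83 to 9.80 CPM in the Ddx41+/+ and 0 and 0.112 CPM in the Ddx41+/- mice with Trp53+/-.

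The difference between the 2 effects was itself tested as an interaction, and 8 of the tested genes (0.0675%) passed an adjusted p of 0.05, all of them among the 64 DEGs: Cdk5rap1, Srpk2, Nap1l1, Ints10, Gcdh, Clgn, Acp1 and Mid1. Without mouse 34 the interaction of Mid1 did not pass (adjusted p = 0.0835), while the other 7 passed whichever of the 5 Trp53+/+ mice was left out. At an unadjusted p under 0.05, 5.01% of the tested genes passed. Cdk5rap1 ran in opposite directions, since it was at 25.9, 17.6 and 17.6 CPM in the Ddx41+/+ and 2.96 and 4.26 CPM in the Ddx41+/- mice with Trp53+/- (log2 fold change -2.48, adjusted p = 0.000657). Srpk2 with Trp53+/- was at 9.50, 12.2 and 17.2 CPM against 9.59 and 8.19 CPM, Gcdh at 77.6, 94.5 and 79.7 CPM against 86.9 and 82.7 CPM, and Nap1l1 at 229, 194 and 215 CPM against 198 and 221 CPM. In these 3 genes only the Ddx41+/- Trp53+/+ mice stood apart from the other 8. The same held for Clgn, which was at 0.0561 to 0.494 CPM in all 5 Trp53+/- mice, and for Acp1, at 278 to 332 CPM in them. The other 56 DEGs, among them all those of the stress and B cell lists, did not pass the interaction test, which does not show that their effects were equal.

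**Figure D5:**
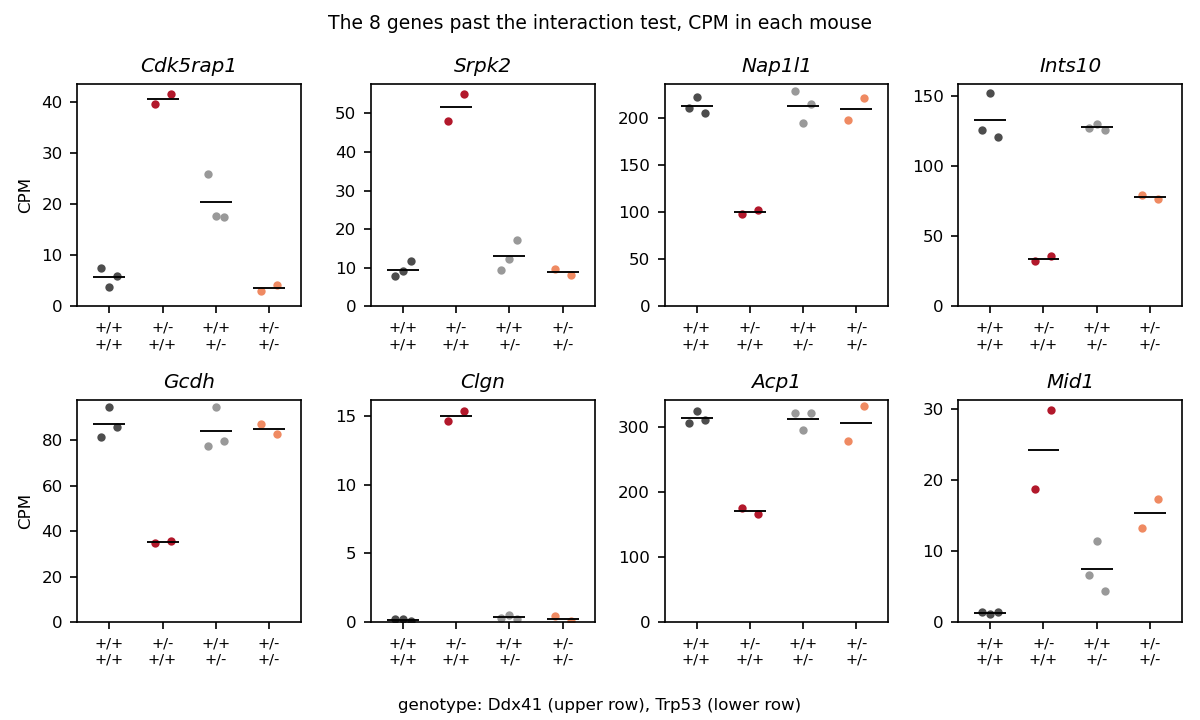
CPM (vertical, from 0) of the 8 genes past the interaction test in each mouse, by genotype (horizontal, Ddx41 above Trp53), with 1 point per mouse and a line at the mean. In Srpk2, Nap1l1, Gcdh, Clgn and Acp1 the Ddx41+/- Trp53+/+ mice stand apart from the other 8 mice, and Cdk5rap1 is also high in Ddx41+/+ Trp53+/- mice.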

How the data were processed

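RNA of CD71+Ter119+ (R2) BM cells was sequenced in 10 mice, 75-base paired-end after poly(A) selection. The labels name a stranded TruSeq mRNA kit and the paper TruSeq RNA Library Prep Kit v2. The authors deposited raw counts of reads per gene symbol, without normalization, for 24421 genes. The submitters' processing notes name FastQC 0.11.7, HISAT2 2.0.5, featureCounts 1.5.2 and the build mm10, and the annotation and the strand setting of the counting are not given in the sources used here. Where strand was not used, reads of overlapping genes cannot be told apart, which concerns 14 DEGs with exons over a gene on the opposite strand and 3 with exons over one on the same strand. Mice 35 and 45, which were left out of the deposited table, were not analysed here.

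edgeR 4.0.16 under R 4.3.3 was used for the tests. Its filterByExpr, given the genotypes, retained 11846 genes and dropped 12575, and TMM factors scaled the libraries. All 10 libraries entered 1 quasi-likelihood fit in which each genotype had its own mean, followed by two-sided F-tests whose p-values were adjusted by Benjamini-Hochberg across these genes. A DEG needed more than a 1.5-fold change together with an adjusted p below 0.05. The SE of a log2 fold change is its size divided by the square root of F. CPM use the scaled library sizes, and ratios between mice a prior count of 2. With 2 against 3 mice, precision is set by the mice, and no 2 libraries differed by less than sampling noise. A floor is 3 counts in a library.

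Positions are from GENCODE M21 (11427 genes) or, by symbol, RefSeq (401), with 18 not placed. Windows before start sites are from RefSeq on GRCm38.p6 and were present for 31 of the 45 higher and 14 of the 19 lower DEGs. Shared sequence was searched for 60 DEGs. Python 3.11.15 with pandas 2.3.3, numpy 2.4.6 and matplotlib 3.10.9 was used for these steps.

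The members and gene lists were chosen with earlier results of these data known, so lists are described by counts and medians without a test. Named were Ddx41, Trp53, the 10 DEGs in each direction with the largest log2 fold change and no overlap, the next 10 DEGs by adjusted p, the DEGs of each list or else up to 2 members with the largest log2 fold change, the 3 most abundant markers of other cells, up to 6 interaction genes and 4 genes that differed most between mice 32 and 34, though not all are given. Each result was recomputed with DESeq2 1.42.0, with its size factors in edgeR, other filters, only the genotypes compared, a likelihood ratio test, no fold limit, an unadjusted p and each of the 5 mice left out. The procedure was tested on simulated data.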

Additional observations from a re-analysis of the deposited data

Results flagged for a closer look

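For 8 genes, the effect of Ddx41 genotype with Trp53+/+ differed from that with Trp53+/- by the interaction test (edgeR's quasi-likelihood test, Benjamini-Hochberg adjustment over 11846 genes). The log2 effect with Trp53+/+ minus that with Trp53+/- was 7.01 for Clgn, 5.29 for Cdk5rap1, 3.15 for Mid1 and 3.01 for Srpk2. It was -1.32 for Gcdh, -1.27 for Ints10, -1.07 for Nap1l1 and -0.84 for Acp1. In Mid1 and Ints10 the effect had the same direction with both Trp53 genotypes and was larger with Trp53+/+, and in Cdk5rap1 the direction was opposite. With each of the 5 Trp53+/+ mice left out in turn, the difference for Mid1 ranged from 2.79 to 3.45 and did not pass without mouse 34 (interaction: Mid1, adjusted p = 0.0835), and the other 7 genes passed each time.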

How the results depend on the processing

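All 64 DEGs kept their direction under each of the 13 alternatives that tested them. The filter of 10 counts removed Clgn, Erdr1, Ctsw and Capn11, which were thus compared under 12. Of the 64, 58 remained DEGs with DESeq2's size factors (58 DEGs), 63 with DESeq2's Wald test, 51 with at least 10 counts in each of the 5 libraries (51 DEGs) and 40 with only the 2 genotypes compared (47 DEGs). All 64 remained with no filter and with the likelihood ratio test. They also remained with no fold limit and with an unadjusted p. These last settings only loosen a limit on the main fit, so no DEG could be lost or change direction there. Total, higher and lower DEGs were 128, 95 and 33 with DESeq2's Wald test, 243, 191 and 52 with no filter, 182, 142 and 40 with the likelihood ratio test and 540, 395 and 145 with an unadjusted p. With a mouse left out they ranged from 13 to 103, 8 to 77 and 5 to 26. DEGs on any list (22) were 39 with the Wald test, 74 with no filter, 52 with the likelihood ratio test and 100 with an unadjusted p, and 2 to 38 with a mouse left out. The Ddx41 log2 fold change with Trp53+/+ passed with the Wald test (log2 fold change -0.63, adjusted p = 0.0308), no filter (-0.63, 0.0177), the likelihood ratio test (-0.63, 0.0228) and an unadjusted p (-0.63), and ranged from -0.75 to -0.50 (adjusted p 0.104 to 0.629) with a mouse left out. With Trp53+/- (5 DEGs) there were 39 with no filter, 2 with the filter of 10 counts, 9 with the likelihood ratio test, 171 with an unadjusted p and 5 to 6 with a mouse left out. The interaction (8 genes) gave 29 with the Wald test, 107 with no filter, 34 with the likelihood ratio test, 593 with an unadjusted p and 8 to 12 with a mouse left out. With a mouse left out, the median ranged from -0.0064 to 0.43 for early progenitor genes, -0.0064 to 0.40 for monocyte and dendritic cell, -0.069 to 0.43 for neutrophil and -0.072 to 0.28 for platelet markers (each lowest without mouse 32), -0.21 to 0.71 for plasma cell and -0.34 to 0.64 for stromal markers (lowest without mouse 34), -0.64 to 0.47 for mast cell, basophil and eosinophil markers (lowest without mouse 32), and -0.31 to 0.046 for macrophage markers (positive without mouse 10, and 0.037 without mouse 12). The causes were not tested. No paired analysis was possible because the genotypes share no mouse numbers. Mouse 34 had the fewest counts, and 2 against 3 mice limit what can be called.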
